A study of Danio rerio with 12 samples.

Results

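The comparison described here set zebrafish larvae exposed to 750 ng/mL bepridil against untreated larvae (0 ng/mL), with 3 libraries in each group, so 6 of the 12 libraries of the series, and with all genes. All groups were AB strain larvae at 120 hours post fertilization (hpf), and bepridil was the only agent named in the labels. The other 6 libraries came from larvae at 250 and 1295 ng/mL. Each library was made from RNA pooled from 15 larvae, so a value describes the mean of a pool and no single larva. The labels do not say whether the pools came from separate clutches or tanks, and the p-values may therefore measure only the spread between these samples. Of 25099 genes in the count table, 21581 passed the filter on low counts and were tested.

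Bepridil is a calcium channel blocker once prescribed against angina. It also acts on sodium and potassium channels, on the sodium-calcium exchanger and on calmodulin. At 120 hpf a zebrafish larva has a beating heart, functional skeletal muscle, an open gut with an attached liver and pancreas, and image-forming eyes, and it is passing from yolk to outside food.

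Libraries of the compared groups held between 16028012 and 16777922 reads counted in genes, and between 23749 and 24009 genes with at least 1 read. Levels are given in CPM, read counts divided by the library total and scaled for library composition. Each log2 fold change is given ± a standard error, with n = 3 libraries per group. That error was derived from the test statistic of a fit of all 12 libraries. It therefore shares spread over the 4 dose groups and between genes, and is not the spread of the 6 compared libraries alone. Values are listed in the order of replicate 1, 2 and 3, and libraries of the 750 ng/mL group are called exposed. A gene was called higher or lower at a Benjamini-Hochberg adjusted p under 0.05 in edgeR's quasi-likelihood test, written below as edgeR adjusted p. The label names the tissue as embryo, and the libraries held markers of many organs, among them mylpfa of fast muscle, vmhc of the heart ventricle, tfa of the liver, elavl3 of neurons and krt4 of the epidermis. The hatching gland marker ctslb had no read in any of the 6 libraries. The oocyte markers zp2.1 and zp3 were at most 0.0576 CPM. Replicate 3 of the exposed group stood apart from its 2 partners on the second principal component, at -39.6 against -7.31 and -2.09.

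At 750 ng/mL 906 genes were higher and 461 lower than in untreated larvae, together 1367 genes or 6.33% of those tested (4.2% higher and 2.14% lower). Most changes were small: 1018 of the 1367 genes moved by less than 2-fold, 49 by at least 4-fold and 4, all higher, by at least 8-fold. The median log2 fold change was 0.77 among the higher genes, -0.53 among the lower genes and 0.02 over all tested genes. The genes called higher took 3.54, 4.42 and 3.95% of counts in the control libraries and 6.69, 6.58 and 7.2% at 750 ng/mL. Those called lower took 4.81, 4.55 and 4.62% in the controls and 3.14, 3.24 and 3.00% at 750 ng/mL. The libraries of the groups did not overlap for 26.3% of all tested genes and for 1359 of the 1367 called. For a called gene, a lack of overlap therefore adds little to the call. The count depended on single libraries: it was 631 without control replicate 1, 885 without exposed replicate 1 and 837 without exposed replicate 3. In all 6 fits that left out 1 library, 525 genes were called. Without control replicate 1, higher calls fell from 906 to 428 and lower calls from 461 to 203. Falls of list counts given below for such fits are to be read beside this overall loss. The list counts themselves are to be read beside the 4.2% higher and 2.14% lower of all tested genes.

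**Figure D1:**
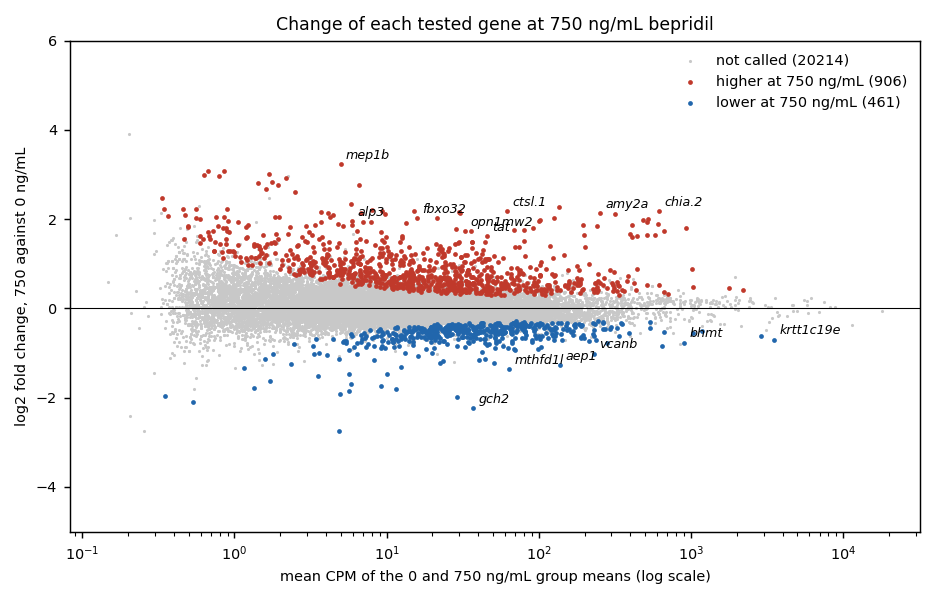
Mean CPM of both groups (x axis, log scale) against log2 fold change at 750 over 0 ng/mL (y axis) for the tested genes, with called genes in red (906 higher) and blue (461 lower). The genes changed by at least 4-fold lie mostly on the higher side, 46 of 49, and the lower genes cluster close to the zero line at levels above 10 CPM.

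The digestive enzymes of the exocrine pancreas were the gene group with the largest share of calls. Of 41 tested pancreatic genes 30 were higher and none lower, with a median log2 fold change of 1.65. Leaving out single libraries gave between 27 and 31 higher and none lower, but several other ways of fitting called 1 lower. Summed over the 41 genes, the level was 2624, 4983 and 3084 CPM in the controls and 11418, 11587 and 12989 CPM at 750 ng/mL, so every exposed library lay above every control. In a pool of whole larvae, more cells of a type and more RNA per cell cannot be told apart. This holds for every organ described here.

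By role, 17 of 19 serine proteases, 4 of 5 carboxypeptidases and 6 of 8 lipases, amylases and related enzymes were higher. The chymotrypsinogen gene ctrb1 stood at 338, 551 and 359.8 CPM in the controls and 1327, 1422 and 1607 CPM at 750 ng/mL (log2 fold change 1.8 ± 0.22, edgeR adjusted p = 0.000389). Its control replicate 2 was the highest control and was still below each exposed library. Pancreatic amylase, amy2a, which digests starch, gave 62, 154 and 64.1 CPM in the controls and 406, 419 and 406 CPM at 750 ng/mL (log2 fold change 2.14 ± 0.35, edgeR adjusted p = 0.00218). Carboxypeptidase A1, cpa1, which trims amino acids from the ends of peptides, gave 32.6, 69.7 and 46 CPM in the controls and 188, 202 and 212 CPM at 750 ng/mL (log2 fold change 2.02 ± 0.28, edgeR adjusted p = 0.000823). In both genes control replicate 2 was again the highest control, and the groups did not overlap.

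Fat-digesting pancreatic enzymes were also among the higher genes. The secreted phospholipase A2 gene pla2g1b was at 4.91, 11.3 and 9.01 CPM in the controls and 31.7, 33.9 and 37.7 CPM at 750 ng/mL (log2 fold change 2.03 ± 0.33, edgeR adjusted p = 0.00231). The bile-salt-activated lipase gene cel.2 was at 31.1, 41.4 and 21.7 CPM in the controls and 116, 96.5 and 106 CPM at 750 ng/mL (log2 fold change 1.76 ± 0.21, edgeR adjusted p = 0.000307). No control library of either gene reached the exposed ones. The trypsin-like gene prss59.1 also rose, 3.85-fold (edgeR adjusted p = 0.00122), but reads of near-identical protease genes may have been split between copies, so single protease values are uncertain. The 5 transcription factors of acinar cells gave no call. Among them ptf1a, required for pancreas formation, was at 3.14, 2.97 and 3.55 CPM in the controls and 3.17, 3.35 and 4.2 CPM at 750 ng/mL (log2 fold change 0.15 ± 0.18, edgeR adjusted p = 0.701), and the groups overlapped. The secretory cell factor bhlha15 had a log2 fold change of 0.27 (edgeR adjusted p = 0.736).

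Genes of absorptive intestinal cells were also mostly higher. Of 72 tested enterocyte genes 39 were higher and 2 lower, with a median log2 fold change of 0.68. The 2 lower genes became 1 without any control library or without exposed replicate 2 or 3. Brush border peptidases and hydrolases made up 12 of these 39 (of 18 tested), transporters 10 (of 20), lipid-binding genes 9 (of 19) and structural and lumen proteins 8 (of 15). The 9 became 5 without control replicate 1 or exposed replicate 3. The markers vil1 and apoa4b.1 were not called, with log2 fold changes of 0.23 and 0.05.

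Of the brush border enzymes, aminopeptidase N, anpepa, which frees amino acids from peptides, was at 8.68, 13.2 and 9.07 CPM in the controls and 26, 24.5 and 28.2 CPM at 750 ng/mL (log2 fold change 1.35 ± 0.14, edgeR adjusted p = 0.000203). Lactase, lct, was at 0.914, 1.03 and 0.958 CPM in the controls and 3, 2.81 and 2.8 CPM at 750 ng/mL (log2 fold change 1.56 ± 0.22, edgeR adjusted p = 0.000823). Control replicate 2 was the highest control in both genes, and neither overlapped between groups. The alkaline phosphatase gene alp3 rose 3.86-fold, from 1.94, 2.55 and 2.82 CPM to 8.99, 10.1 and 9.19 CPM (edgeR adjusted p = 6.29e-05). Under the filter of at least 10 counts in every library alp3 was not tested. Meprin beta, mep1b, a brush border metalloprotease, went from 0.4, 1.27 and 1.18 CPM to 6.68, 8.92 and 11.4 CPM (log2 fold change 3.24).

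Transporters of amino acids, glucose and peptides were among the higher genes. The neutral amino acid carrier slc6a19b was at 12.4, 15.2 and 12.3 CPM in the controls and 32.5, 27.3 and 36.8 CPM at 750 ng/mL (log2 fold change 1.28 ± 0.17, edgeR adjusted p = 0.000774). The sodium-glucose carrier slc5a1 was at 23.8, 37.1 and 23.3 CPM in the controls and 62.8, 55.4 and 61.8 CPM at 750 ng/mL (log2 fold change 1.1 ± 0.17, edgeR adjusted p = 0.00144). The peptide carrier slc15a1a was at 4.91, 7.22 and 4.62 CPM in the controls and 15.4, 11.6 and 16.4 CPM at 750 ng/mL (log2 fold change 1.38 ± 0.22, edgeR adjusted p = 0.0021). In each case the lowest exposed library was above the highest control. The chloride-bicarbonate exchanger slc26a3.2 rose 2.57-fold (edgeR adjusted p = 0.000604).

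Lipid-handling genes of the gut moved in both directions. The ileal bile acid carrier fabp6 was at 40.7, 51.1 and 33.2 CPM in the controls and 116, 115 and 125 CPM at 750 ng/mL (log2 fold change 1.51 ± 0.21, edgeR adjusted p = 0.000985). The fatty acid receptor cd36 was at 29, 48 and 28.6 CPM in the controls and 74.3, 63.3 and 78.6 CPM at 750 ng/mL (log2 fold change 1.03 ± 0.17, edgeR adjusted p = 0.00227), without overlap. The cytosolic fatty acid carriers fabp2 and fabp1b.1 rose by log2 fold changes of 0.9 and 0.86. By contrast apoba, which encodes the structural protein of chylomicrons and of very-low-density lipoprotein and is made in gut, liver and yolk cells, fell from 859.7, 837 and 779 CPM to 471, 541 and 362 CPM (log2 fold change -0.85 ± 0.14, edgeR adjusted p = 0.00261). Every exposed library of apoba was below every control.

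Chitin- and protein-degrading genes of the gut lumen and of lysosome-rich enterocytes, the cells that take up whole protein in the hind part of the gut, gave large folds. The acidic chitinase gene chia.2 was at 163, 362 and 143 CPM in the controls and 1036, 885 and 1109 CPM at 750 ng/mL (log2 fold change 2.18 ± 0.28, edgeR adjusted p = 0.000519). Its paralog chia.3 rose 4.38-fold, and counts may be shared among the chitinase copies. The lysosomal protease gene ctsl.1 was at 16.6, 31.4 and 19 CPM in the controls and 101, 81.4 and 121 CPM at 750 ng/mL (log2 fold change 2.18 ± 0.23, edgeR adjusted p = 0.000203). Another lysosomal protease, ctsbb, rose 3.76-fold (edgeR adjusted p = 0.00233). Neither chia.2 nor ctsl.1 overlapped between groups. With ctsh these were the 3 called genes of 15 tested for lysosome-rich enterocytes, all higher, and the related gene ctsla was at 708, 974 and 819 CPM in the controls and 556, 615 and 698 CPM at 750 ng/mL (log2 fold change -0.42 ± 0.12, edgeR adjusted p = 0.0528) and was not called. Of 76 lysosomal genes, 4 were higher and 1 lower, a share close to that of all genes. The 1 became 2 without control replicate 2 or exposed replicate 2 or 3.

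Further gut genes were higher in smaller groups. Of 10 tested astacin and hatching enzyme genes 5 were higher, beside 4.2% of all genes, among them c6ast4 (3.66-fold) and mep1b. The gene mep1b is also counted above among the brush border enzymes. The microvillus cadherin gene cdhr2 rose 2.17-fold (edgeR adjusted p = 0.00488). The galectin gene lgals2b rose 1.76-fold (edgeR adjusted p = 0.00254). The peptidoglycan recognition gene pglyrp6 was called higher from a very low level, 0, 0.425 and 0.113 CPM against 1.44, 0.778 and 2.37 CPM. Its control libraries alone were too low for the filter on low counts, so it was tested only through libraries with bepridil. Under the filter of at least 10 counts in every library pglyrp6 was not tested. Its log2 fold change was 3.08 and became 4.58 without control replicate 2.

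**Figure D2:**
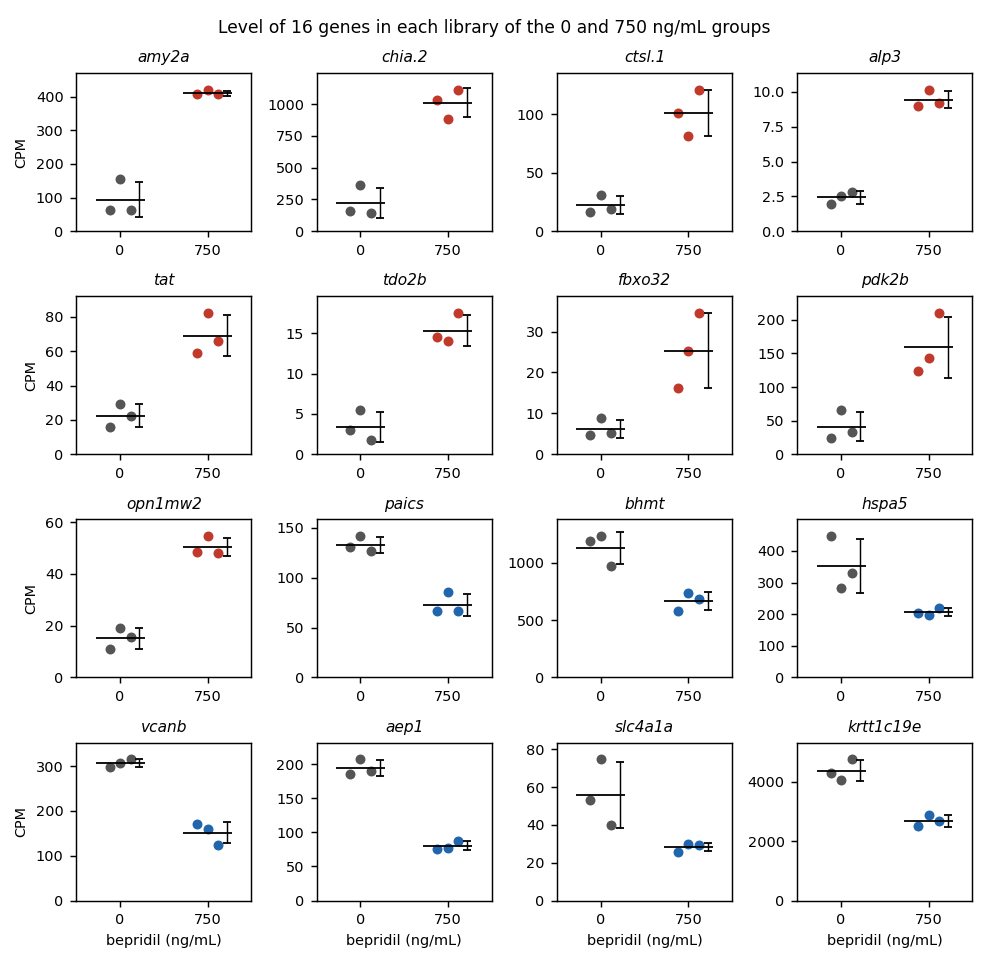
CPM (y axis, linear from 0) of 16 genes in each of the 3 libraries at 0 and 750 ng/mL (x axis), with points for libraries, a horizontal bar for the mean and an error bar of 1 SD. In all 16 genes the groups do not overlap, as in 1359 of all 1367 called genes. At 750 ng/mL 9 of the 16 are higher (red) and 7 lower (blue).

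Liver genes did not move as one group. Of 91 tested, 17 were higher and 13 lower, with a median log2 fold change of -0.01. By role, of 31 metabolic enzymes 11 were higher and 2 lower, of 27 coagulation and plasma proteins 4 were higher and 5 lower, of 18 complement and acute phase genes 1 was higher and 3 lower, and of 15 lipid-binding and lipoprotein genes 1 was higher and 3 lower. These differences between roles were not tested. The counts rested partly on single libraries, as did the count over all genes. The higher count was 10 without control replicate 1, 7 without control replicate 3 and 8 without exposed replicate 3, and the lower count was 7 without control replicate 1 and 6 without exposed replicate 1. The 11 higher metabolic enzymes became 5 without control replicate 3 or exposed replicate 3 and 7 without control replicate 1. Of the plasma proteins, the 4 became 1 without control replicate 1 or 3 and 2 without exposed replicate 3, and the 5 became 2, 3 and 1 without control replicate 1, control replicate 2 and exposed replicate 1. The 3 lower lipoprotein genes became 1 without control replicate 1 or exposed replicate 1, and the 1 higher complement gene was lost without control replicate 3 or exposed replicate 2 or 3.

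Enzymes of tyrosine and tryptophan breakdown were among the higher liver genes. Tyrosine aminotransferase, tat, the first step of tyrosine breakdown, was at 15.9, 29.4 and 22.3 CPM in the controls and 59.16, 82.1 and 66.1 CPM at 750 ng/mL (log2 fold change 1.62 ± 0.19, edgeR adjusted p = 0.000307). The next enzyme, hpda, was at 25.5, 35.7 and 26.4 CPM in the controls and 59.5, 62.9 and 65.7 CPM at 750 ng/mL (log2 fold change 1.1 ± 0.13, edgeR adjusted p = 0.000307). Tryptophan dioxygenase, tdo2b, was at 2.97, 5.46 and 1.8 CPM in the controls and 14.5, 14 and 17.5 CPM at 750 ng/mL (log2 fold change 2.18 ± 0.27, edgeR adjusted p = 0.000441). In all 3 the exposed libraries lay above the controls. Its paralog tdo2a rose 1.79-fold (edgeR adjusted p = 0.00322). The liver fatty acid-binding protein fabp10a was at 90.8, 142 and 99.4 CPM in the controls and 268, 256 and 344 CPM at 750 ng/mL (log2 fold change 1.38 ± 0.21, edgeR adjusted p = 0.0013). Transthyretin, ttr, a carrier of thyroid hormone, rose 2.36-fold (edgeR adjusted p = 0.00275). None of the exposed libraries of fabp10a fell among the controls.

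Among the liver genes called lower, betaine-homocysteine methyltransferase, bhmt, which remethylates homocysteine, was at 1188, 1231 and 973 CPM in the controls and 576, 734 and 688 CPM at 750 ng/mL (log2 fold change -0.76 ± 0.11, edgeR adjusted p = 0.00131). The plasma protein gene vtna, encoding vitronectin, was at 73.1, 69.2 and 62.4 CPM in the controls and 38.8, 44.4 and 40.8 CPM at 750 ng/mL (log2 fold change -0.72 ± 0.12, edgeR adjusted p = 0.00231). The lipoprotein gene apobb.2 was at 27.4, 19.2 and 18 CPM in the controls and 8.99, 12 and 10.1 CPM at 750 ng/mL (log2 fold change -1.05 ± 0.18, edgeR adjusted p = 0.00268). No exposed library of the 3 genes reached a control. The complement genes c8b and cfi fell by log2 fold changes of -0.65 and -0.63. Apolipoprotein A-I, apoa1a, and prothrombin, f2, were also called lower (-0.61 and -0.51). The call of apoa1a was lost without control replicate 1 or exposed replicate 1, and that of f2 without exposed replicate 1.

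Enzymes that process foreign compounds changed in both directions, beside 4.2% of all genes called higher and 2.14% lower. Of 106 tested, 29 were higher and 7 lower: 17 and 5 of 44 cytochromes P450 of families 1 to 3, 9 and 2 of 42 conjugating enzymes, and 3 and 0 of 20 receptors and export pumps. The 7 became 4 without control replicate 3 or without exposed replicate 1. The cytochrome P450 gene cyp3c3 was at 12.9, 18.9 and 14.7 CPM in the controls and 40.8, 36.6 and 51.5 CPM at 750 ng/mL (log2 fold change 1.47 ± 0.17, edgeR adjusted p = 0.000254). Another, cyp2n13, was at 11.1, 26.3 and 12.8 CPM in the controls and 57.9, 48.7 and 59.18 CPM at 750 ng/mL (log2 fold change 1.73 ± 0.25, edgeR adjusted p = 0.00107), and cyp2k18 rose 2.44-fold. The groups of these 3 genes did not overlap.

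Members of the cyp2aa cluster moved in opposite directions. The gene cyp2aa8 fell 3.95-fold, from 48.6, 53.2 and 37.1 CPM to 11.2, 14.8 and 9.13 CPM (edgeR adjusted p = 0.00775). By contrast cyp2aa12, chosen after its values were seen, was at 2.91, 8.07 and 4.17 CPM in the controls and 12.8, 15.6 and 14.2 CPM at 750 ng/mL (log2 fold change 1.5 ± 0.25, edgeR adjusted p = 0.00233). The groups did not overlap for either gene. The call of cyp2aa4, lower by a log2 fold change of -1.16 (edgeR adjusted p = 0.0489), held in only 1 of the 6 fits without a library, that without exposed replicate 2. The cyp2aa genes are close copies, and reads may have been assigned to the wrong one.

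Some conjugating and export genes were among the called ones. The 2 lower conjugating enzymes became 0 or 1 in each fit without a library, and the 3 higher receptors and pumps became 1 without control replicate 3 or any exposed library. The sulfotransferase sult1st3 was at 3.71, 6.92 and 4.06 CPM in the controls and 13.8, 16.6 and 13.8 CPM at 750 ng/mL (log2 fold change 1.6 ± 0.23, edgeR adjusted p = 0.00102). A second sulfotransferase, sult1st2, rose 3.3-fold, and its log2 fold change of 1.72 became 2.38 without control replicate 2. The glutathione transferase gsto1 and the glucuronosyltransferase ugt1a1 rose 2.29-fold and 1.98-fold. The export pump gene abcb4, a relative of the multidrug transporters, was at 26.1, 25.9 and 21.5 CPM in the controls and 40.7, 43.5 and 44.8 CPM at 750 ng/mL (log2 fold change 0.81 ± 0.14, edgeR adjusted p = 0.00249). No library of abcb4 or sult1st3 crossed between groups.

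Bile acid, sterol and fat genes gave smaller sets of calls. Of 17 genes of bile acid synthesis and its nuclear receptors 4 were higher, which fell to 2 without control replicate 1 or without any 1 of the 750 ng/mL libraries. Cholesterol 7-alpha-hydroxylase, cyp7a1, the rate-limiting enzyme of bile acid synthesis, was at 34.3, 43.1 and 31.6 CPM in the controls and 90.3, 62.6 and 86.6 CPM at 750 ng/mL (log2 fold change 1.14 ± 0.16, edgeR adjusted p = 0.000985). The hormone gene fgf19, which in mammals is released by the gut and represses cyp7a1, was at 1.54, 2.49 and 1.46 CPM in the controls and 4.15, 5.87 and 4.32 CPM at 750 ng/mL (log2 fold change 1.39 ± 0.27, edgeR adjusted p = 0.00584). Both rose together, without overlap of the groups. Of 36 genes of sterol synthesis and its receptors and regulators 5 were higher and none lower. These were 2 of 23 enzymes, whose median log2 fold change was -0.06, and 3 of 13 receptors and regulators. The demethylating enzyme msmo1 was at 25, 23.4 and 24.5 CPM in the controls and 50.1, 34.5 and 47.2 CPM at 750 ng/mL (log2 fold change 0.85 ± 0.16, edgeR adjusted p = 0.0045), and the low-density lipoprotein receptor gene ldlra at 48.1, 54.2 and 57.8 CPM in the controls and 81.2, 75.1 and 82.3 CPM at 750 ng/mL (log2 fold change 0.58 ± 0.09, edgeR adjusted p = 0.00148). The upstream enzymes hmgcs1 and cyp51 were not called, at log2 fold changes of -0.44 and 0.33. The receptor-degrading ligase mylipa, a known target of the oxysterol receptor in mammals, rose 1.55-fold (edgeR adjusted p = 0.00472).

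Fat synthesis and fat use both held higher genes, beside 4.2% of all genes called higher and 2.14% lower. Of 24 synthesis and storage genes 4 were higher and 2 lower. The desaturase fads2 and the elongase elovl2, which build long polyunsaturated fatty acids, rose 1.78-fold and 1.79-fold. Of 32 genes of fatty acid oxidation and ketogenesis 7 were higher and 1 lower. The 1 lower call was lost in all 6 fits without a library, and 2 were higher without control replicate 1 and 4 without control replicate 3 or exposed replicate 1. Pyruvate dehydrogenase kinase, pdk2b, which restrains glucose oxidation, was at 24.7, 65.3 and 32.8 CPM in the controls and 124, 143 and 209.8 CPM at 750 ng/mL (log2 fold change 1.96 ± 0.35, edgeR adjusted p = 0.00338). The mitochondrial carrier gene ucp1 was at 68.7, 123 and 75.2 CPM in the controls and 167, 232 and 212 CPM at 750 ng/mL (log2 fold change 1.19 ± 0.20, edgeR adjusted p = 0.00231). Both genes were higher in each exposed library than in any control. The phosphatidate phosphatase gene lpin1 rose 1.79-fold (edgeR adjusted p = 0.00148).

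In one-carbon metabolism, of 22 folate and serine synthesis genes 5 were lower, 1 was higher and the rest were not called. The mitochondrial formate-producing enzyme mthfd1l was at 94.2, 99.6 and 79.6 CPM in the controls and 33.8, 40.7 and 32.3 CPM at 750 ng/mL (log2 fold change -1.36 ± 0.12, edgeR adjusted p = 3.92e-05), the smallest adjusted p over all tested genes. The cytosolic enzymes mthfd1a and mthfd1b fell by log2 fold changes of -0.76 and -0.39, and mitochondrial aldh1l2 by -0.64. The 1 higher gene was the mitochondrial folate carrier slc25a32a, at 40.2, 54.8 and 47.9 CPM in the controls and 68, 67.9 and 72.7 CPM at 750 ng/mL (log2 fold change 0.55 ± 0.10, edgeR adjusted p = 0.00584). None of the mthfd genes overlapped between groups.

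Several enzymes of purine and pigment synthesis were called lower. The purine synthesis enzyme paics was at 131, 141 and 126 CPM in the controls and 66.4, 85.2 and 66.2 CPM at 750 ng/mL (log2 fold change -0.87 ± 0.17, edgeR adjusted p = 0.00563), and atic, which carries out the last steps to inosine monophosphate, at 93.4, 79 and 85.9 CPM in the controls and 56.2, 55.3 and 50.9 CPM at 750 ng/mL (log2 fold change -0.67 ± 0.11, edgeR adjusted p = 0.00231). Exposed libraries of both lay below the controls. Of 22 genes of yellow pigment cells and pteridine synthesis 6 were lower and 3 higher, a list that has paics and atic among its members. The 3 became 1 without control replicate 1 or exposed replicate 3. The pteridine enzyme gch2 fell 4.69-fold, from 73.1, 54 and 55.6 CPM to 14.7, 14.1 and 10 CPM (edgeR adjusted p = 8.65e-05). The xanthophore oxidase gene aox5 was at 36.5, 29.5 and 31.2 CPM in the controls and 17.1, 15.6 and 10.29 CPM at 750 ng/mL (log2 fold change -1.18 ± 0.17, edgeR adjusted p = 0.00102), and the carrier slc22a7a fell by a log2 fold change of -0.8. For aox5 replicate 3 at 750 ng/mL was the lowest library. Of the melanin synthesis genes, dct was called lower (-0.81) and so was tyrp1b (-0.49), whose call was lost without control replicate 3 or exposed replicate 2. The iridophore purine enzyme gene pnp4b moved the other way, at 26.1, 37.7 and 29.8 CPM in the controls and 55.5, 56.1 and 67.5 CPM at 750 ng/mL (log2 fold change 0.94 ± 0.15, edgeR adjusted p = 0.00193).

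Of 45 tested genes of the response to glucocorticoid hormone 15 were higher and none lower, of which 13 were among the 33 targets and 2 among the 12 axis genes. The peptide that starts the stress axis, corticotropin-releasing hormone (crhb), was at 3.83, 3.34 and 4.11 CPM in the controls and 6.97, 6.35 and 10.29 CPM at 750 ng/mL (log2 fold change 1.06 ± 0.19, edgeR adjusted p = 0.00383). Its binding protein crhbp was at 11.3, 13.2 and 13.4 CPM in the controls and 18.5, 17.6 and 24.4 CPM at 750 ng/mL (log2 fold change 0.68 ± 0.13, edgeR adjusted p = 0.00703). No exposed library of either gene fell among the controls, and replicate 3 at 750 ng/mL was the highest in both. Among the targets, igfbp1b, which binds insulin-like growth factors, was at 4.23, 5.64 and 4.39 CPM in the controls and 10.6, 12.1 and 18.8 CPM at 750 ng/mL (log2 fold change 1.54 ± 0.24, edgeR adjusted p = 0.00144). The transcription factor cebpd and the glucose uptake inhibitor txnipa rose 1.53-fold and 1.52-fold. The growth arrest gene gadd45ba rose 1.7-fold (edgeR adjusted p = 0.00679).

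Genes of fasting and muscle atrophy overlapped that list and gave 17 higher and 0 lower of 39, with a median of 0.38. The count was 11 without control replicate 1 or without exposed replicate 3. Atrogin-1, fbxo32, a ubiquitin ligase that marks muscle proteins for degradation, was at 4.8, 8.8 and 5.13 CPM in the controls and 16.2, 25.3 and 34.5 CPM at 750 ng/mL (log2 fold change 2.02 ± 0.34, edgeR adjusted p = 0.00261). The ligase adaptor klhl38b was at 3.54, 8.92 and 3.77 CPM in the controls and 17.5, 25 and 31.6 CPM at 750 ng/mL (log2 fold change 2.2 ± 0.29, edgeR adjusted p = 0.000604). Replicate 3 was the highest exposed library in both, and the groups stayed apart. The growth brakes sesn1, at 179.6, 223 and 209 CPM in the controls and 317, 327 and 345 CPM at 750 ng/mL, and ddit4, at 16.3, 18.1 and 17.3 CPM in the controls and 30.6, 29 and 44 CPM at 750 ng/mL, hold back the kinase mTOR. Both rose (edgeR adjusted p = 0.000985 and 0.00428). The mitophagy receptor bnip3 rose 1.54-fold.

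Clock and immediate early genes gave 6 higher and 0 lower of 42, and 7 higher and 3 lower of 45. Over all genes 4.2% were called higher and 2.14% lower. The 7 became 4, 3 and 2 without control replicate 2, control replicate 3 and exposed replicate 3, and the 3 became 1 without control replicate 1 or exposed replicate 2 or 3. The repressor nfil3-6 was at 12.3, 33.8 and 24.2 CPM in the controls and 58.5, 64.1 and 73.2 CPM at 750 ng/mL (log2 fold change 1.48 ± 0.24, edgeR adjusted p = 0.0021), and nfil3-5 rose 1.43-fold. The clock repressor bhlhe40 was at 56.7, 57.9 and 55.7 CPM in the controls and 90.8, 94.4 and 110.1 CPM at 750 ng/mL (log2 fold change 0.79 ± 0.12, edgeR adjusted p = 0.00127). All exposed libraries of these genes were above all controls. Of the immediate early genes, the AP-1 subunit fosb fell, at 79.6, 66 and 56.7 CPM in the controls and 46.8, 34 and 28.1 CPM at 750 ng/mL (log2 fold change -0.89 ± 0.18, edgeR adjusted p = 0.00831). The Myc family gene mych rose 1.88-fold. Times of day of collection were not given in the labels, and their part in these counts was not tested.

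A list of ion channels, exchangers, calcium pumps and calmodulins, drawn up around the proteins that bepridil acts on, was almost without calls. It also holds pumps, which are not among the targets named above. Of 81 tested genes 1 was lower and none higher, under the 6.33% of all genes, and the median log2 fold change was 0.07. No gene was called among 15 calcium channel pore genes, 13 calcium channel subunits, 12 sodium channel genes and 19 potassium and pacemaker channel genes. At the share of all genes, groups this small would hold few calls, so each of these counts alone shows no difference from it. In pools of whole larvae, the organ that gave the reads of a channel gene cannot be told. The L-type pore gene cacna1c was at 67.7, 75.2 and 76.2 CPM in the controls and 85.6, 91 and 84.1 CPM at 750 ng/mL (log2 fold change 0.25 ± 0.15, edgeR adjusted p = 0.369). The skeletal muscle pore gene cacna1sa was at 38.7, 39.3 and 38 CPM in the controls and 31.9, 35 and 28.3 CPM at 750 ng/mL (log2 fold change -0.29 ± 0.10, edgeR adjusted p = 0.112). Neither overlapped between groups, but neither passed the test. The potassium channel gene kcnh2a, whose human counterpart carries the rapid repolarizing current, was at 2.86, 3.46 and 3.21 CPM in the controls and 4.44, 4.13 and 4.14 CPM at 750 ng/mL (log2 fold change 0.42 ± 0.17, edgeR adjusted p = 0.173). The calmodulin gene calm2b was at 625, 667 and 639 CPM in the controls and 646, 584 and 711 CPM at 750 ng/mL and overlapped between groups.

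The 1 called gene was the calcium pump atp2a2b, at 131, 70.4 and 95 CPM in the controls and 57.5, 70.18 and 61.1 CPM at 750 ng/mL (log2 fold change -0.65 ± 0.17, edgeR adjusted p = 0.0294). Control replicate 2 was nearly equal to the highest exposed library, replicate 2, and the call was lost in 4 of the 6 fits without a library. Its paralog atp2a2a had a log2 fold change of 0.39 (edgeR adjusted p = 0.209). The calcium pump gene atp2a1l, which was called higher, is not in this list and is described below with skeletal muscle. Replicate 3 at 750 ng/mL was far below its partners for some channel genes: cacna1ab stood at 33.9, 36.7 and 16.8 CPM and scn4ba at 19.9, 21.3 and 7.61 CPM in the exposed libraries, against 25, 33.6 and 28.5 CPM and 13.3, 18.9 and 19.1 CPM in the controls.

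**Figure D3:**
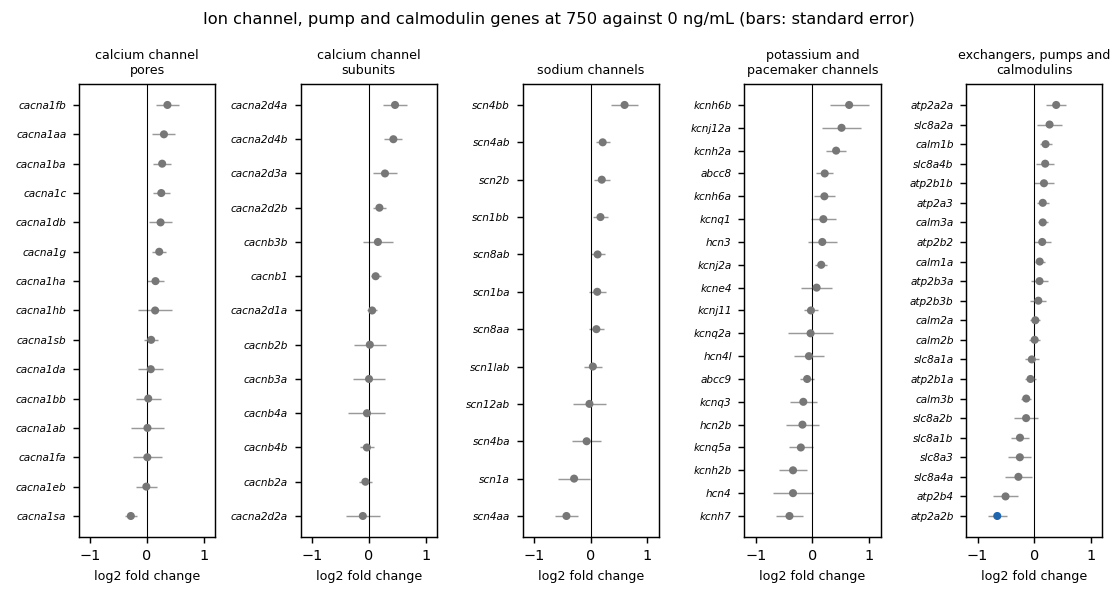
Log2 fold change at 750 over 0 ng/mL (x axis) of the 81 tested channel, pump and calmodulin genes in 5 panels by role, with points for genes and bars of 1 standard error. The blue point is atp2a2b, the 1 called gene, at -0.65, and the grey points are the genes not called.

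No heart gene was called among 38 tested, beside 6.33% of all genes, a share at which a list of this size would hold few calls. The heart chamber genes myl7 (-0.02), nppa (-0.00) and tpm4a (-0.28) were among the 38. Among 83 skeletal muscle genes 4 were higher and 2 lower, a share near that of all genes. The 4 became 7 without control replicate 2, 2 without exposed replicate 1 and 1 without any of the other libraries, and the 2 became 1 without control replicate 3 or exposed replicate 1 or 2. The fast muscle troponin gene tnnt3a was at 444, 489 and 459.8 CPM in the controls and 309, 311 and 334 CPM at 750 ng/mL (log2 fold change -0.55 ± 0.11, edgeR adjusted p = 0.0062), and the calcium pump gene atp2a1l at 627, 901 and 621 CPM in the controls and 1177, 1313 and 1490.1 CPM at 750 ng/mL (log2 fold change 0.89 ± 0.16, edgeR adjusted p = 0.00332). Both were called, in opposite directions, and did not overlap.

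Of 59 lens genes 14 were higher and none lower, and 58 had a positive fold change, with a median log2 fold change of 0.47. This count was 3 without control replicate 1 or without exposed replicate 3. The crystallin crygmx, a structural lens protein, was at 118, 128 and 142 CPM in the controls and 218, 212 and 281 CPM at 750 ng/mL (log2 fold change 0.87 ± 0.13, edgeR adjusted p = 0.00146), and crygn1 rose 2.2-fold. Crystallin genes come in near-identical copies, and reads may be split between them. Of 76 phototransduction genes 9 were higher and 1 lower, with a median of 0.41, but the higher count was 4 without control replicate 1, 27 without control replicate 3 and 5 without exposed replicate 3, and the 1 lower call was lost in all 6 fits without a library. The green opsin opn1mw2 was at 10.9, 19 and 15.7 CPM in the controls and 48.5, 54.5 and 48.1 CPM at 750 ng/mL (log2 fold change 1.73 ± 0.19, edgeR adjusted p = 0.000254), and the cone phosphodiesterase subunit pde6h at 4.91, 6.31 and 7.21 CPM in the controls and 14.6, 17.1 and 25.3 CPM at 750 ng/mL (log2 fold change 1.63 ± 0.21, edgeR adjusted p = 0.000484). The retinol carrier rbp4l rose 2.04-fold. The ultraviolet opsin opn1sw1 had a log2 fold change of 0.7 (edgeR adjusted p = 0.104) and was not called. In opn1mw2 and pde6h the groups did not overlap.

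In the nervous system the calls differed by list, beside 4.2% of all genes called higher. Of 50 neuronal genes 1 was higher, gad1b, which makes the transmitter GABA and whose call was lost in all 6 fits without a library (log2 fold change 0.34, edgeR adjusted p = 0.0322). Of 27 neuropeptide and pituitary genes 5 were higher, or 3 without control replicate 1 or exposed replicate 3. Among them, vasoactive intestinal peptide, vip, was at 7.6, 8.98 and 6.42 CPM in the controls and 13.9, 13.3 and 15.4 CPM at 750 ng/mL (log2 fold change 0.89 ± 0.13, edgeR adjusted p = 0.00127) and melanin-concentrating hormone, pmchl, at 0.971, 1.82 and 1.75 CPM in the controls and 3.34, 3.71 and 5.84 CPM at 750 ng/mL (log2 fold change 1.5 ± 0.26, edgeR adjusted p = 0.00281). Of 33 glial genes 5 were higher, or 3 without control replicate 3 and 2 without exposed replicate 3. Myelin basic protein, mbpa, was at 45.4, 54.2 and 52 CPM in the controls and 78.6, 79.9 and 84.8 CPM at 750 ng/mL (log2 fold change 0.68 ± 0.09, edgeR adjusted p = 0.000784) and the myelin gene mpz rose 1.49-fold. None of these 4 genes overlapped between groups.

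Extracellular matrix genes were among the lower ones. Of 42 tested genes of fibroblast and basement membrane matrix 14 were lower and 1 higher, with a median of -0.31. The 1 higher call was lost without control replicate 1 or 3 or exposed replicate 1 or 3. The lower count fell to 5 without control replicate 1 and to 9 without control replicate 2 or without exposed replicate 1 or 2. Elastic-fibre fibrillin, fbn2b, was at 241, 255 and 235 CPM in the controls and 147, 164 and 148 CPM at 750 ng/mL (log2 fold change -0.67 ± 0.13, edgeR adjusted p = 0.00541). Tenascin, tnc, was at 222, 191 and 192 CPM in the controls and 126, 141 and 132 CPM at 750 ng/mL (log2 fold change -0.6 ± 0.10, edgeR adjusted p = 0.00227). Actinodin, and3, which builds the fin fold fibrils, was at 309, 295 and 272 CPM in the controls and 182, 171 and 186 CPM at 750 ng/mL (log2 fold change -0.7 ± 0.12, edgeR adjusted p = 0.00306). The exposed libraries of the 3 genes lay below the controls. Laminin gamma 1, lamc1 (-0.49), and collagen VI alpha 1, col6a1 (-0.45), fell by less, and the call of lamc1 was lost without control replicate 1. The large proteoglycan versican, vcanb, was at 298, 307 and 315 CPM in the controls and 171, 159.9 and 125 CPM at 750 ng/mL (log2 fold change -1.02 ± 0.14, edgeR adjusted p = 0.000774). The basement membrane protein frem2a was at 52.2, 56.2 and 58.8 CPM in the controls and 30.4, 31.6 and 13.6 CPM at 750 ng/mL (log2 fold change -1.14 ± 0.21, edgeR adjusted p = 0.00402), with replicate 3 the lowest of the exposed libraries.

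Bone and cartilage lists held fewer calls. Of 32 bone genes 5 were lower and 2 higher, and of 34 cartilage genes 5 were lower and 1 higher. Over all genes 2.14% were called lower and 4.2% higher. Of the 2 higher bone genes 1 was alp3, described above with the brush border enzymes. Both lower counts became 3 without control replicate 1, and the cartilage count also without exposed replicate 1. The 2 higher bone genes became 1 without control replicate 3 or exposed replicate 1 or 3, and the 1 higher cartilage gene kept its call in 1 of the 6 fits without a library, that without control replicate 2. The collagen chaperone fkbp10b was at 42.1, 45.5 and 42.1 CPM in the controls and 28.9, 26.8 and 26.6 CPM at 750 ng/mL (log2 fold change -0.66 ± 0.10, edgeR adjusted p = 0.00138), and prolyl 3-hydroxylase, p3h1, at 37.1, 40 and 38.4 CPM in the controls and 23.7, 26.1 and 24.8 CPM at 750 ng/mL (log2 fold change -0.63 ± 0.12, edgeR adjusted p = 0.00567). Both were lower in every exposed library. The matricellular gene postnb fell by a log2 fold change of -0.5, the cartilage link protein hapln1a by -0.64 and the cartilage matrix gene emilin3a by -1.47. The calcium-binding protein rcn3, which resides in the secretory pathway, was at 65.4, 56.3 and 60.12 CPM in the controls and 28.8, 27.12 and 27.3 CPM at 750 ng/mL (log2 fold change -1.13 ± 0.16, edgeR adjusted p = 0.000985).

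Skin genes moved in both directions, beside 4.2% of all genes called higher and 2.14% lower. Of 43 epidermal genes 6 were higher and 7 lower, and the 6 were keratins named krt91 to krt97. The 6 became 2 without control replicate 1, 3 without exposed replicate 2 and 1 without control replicate 3 or exposed replicate 3. The 7 became 3 without control replicate 2 or 3 and 2 without control replicate 1 or exposed replicate 1 or 3. The keratin krtt1c19e, a marker of basal epidermis, was at 4290.1, 4048 and 4743 CPM in the controls and 2494, 2890.1 and 2674 CPM at 750 ng/mL (log2 fold change -0.7 ± 0.13, edgeR adjusted p = 0.00475). The keratin krt93 was at 2.74, 3.28 and 1.75 CPM in the controls and 5.41, 8.92 and 7.18 CPM at 750 ng/mL (log2 fold change 1.47 ± 0.29, edgeR adjusted p = 0.0062). The desmosomal cadherin dsg2.1 was at 54.6, 62.6 and 55 CPM in the controls and 40.4, 41.4 and 38.3 CPM at 750 ng/mL (log2 fold change -0.52 ± 0.08, edgeR adjusted p = 0.00224). The aerolysin-like gene aep1 was at 185, 207 and 190.2 CPM in the controls and 75.3, 77.5 and 87.7 CPM at 750 ng/mL (log2 fold change -1.28 ± 0.18, edgeR adjusted p = 0.000823). The groups did not overlap for any of the 4.

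Of 32 tested chaperone and degradation genes of the endoplasmic reticulum 10 were lower and 1 higher, with a median of -0.32. The 10 became 4 without control replicate 1 and 5 without exposed replicate 1 or 2. The 1 higher gene was pdia2, a pancreatic disulfide isomerase, which is also in the pancreas list (0.75) and whose call held in only 1 of the 6 fits without a library. With 33 Atf4 targets added, the list held 12 lower and 4 higher of 65, and the lower count was 5 without control replicate 1 or exposed replicate 2 and 6 without exposed replicate 1. The 4 became 1 without control replicate 1 or exposed replicate 3 and 2 without control replicate 3 or exposed replicate 2. The chaperone hspa5, called BiP, was at 446, 281 and 331 CPM in the controls and 203, 197 and 220.1 CPM at 750 ng/mL (log2 fold change -0.77 ± 0.15, edgeR adjusted p = 0.00686). The disulfide isomerase pdia6 was at 63.5, 57.8 and 53.8 CPM in the controls and 41.6, 39.4 and 42.6 CPM at 750 ng/mL (log2 fold change -0.5 ± 0.09, edgeR adjusted p = 0.00509), and calr3b, a calreticulin, at 169.8, 152 and 175 CPM in the controls and 127, 114 and 96.4 CPM at 750 ng/mL (log2 fold change -0.56 ± 0.12, edgeR adjusted p = 0.0093). Control replicate 1 was the highest hspa5 library, and the groups did not overlap. The chaperone hsp90b1 fell by -0.61 (edgeR adjusted p = 0.0102), lost without control replicate 1. Among 39 heat shock genes 3 were lower, beside 2.14% of all genes, including the mitochondrial chaperone hspd1 (-0.61) and the collagen chaperone serpinh1a (-0.66).

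Proteasome genes gave 2 higher and 2 lower of 48, close to the 4.2% higher and 2.14% lower of all genes for so short a list. Of the 48, 41 had negative fold changes, and the median was -0.23. The 2 higher genes, 1 of them the transcription factor gene nfe2l1a, were among 33 genes of the regulatory particle and factors. All 15 core particle genes tested had negative fold changes. The lower count was 0 without control replicate 1 or exposed replicate 1 and 1 without exposed replicate 2. It was 6 with DESeq2 and 5 with total counts alone. The subunit psmb5 was called lower (-0.45), and its call was lost without control replicate 1 or exposed replicate 1. The transcription factor gene nfe2l1a, which raises proteasome genes in mammals, was at 13.5, 27.18 and 16.6 CPM in the controls and 39.8, 40.1 and 48.2 CPM at 750 ng/mL (log2 fold change 1.16 ± 0.19, edgeR adjusted p = 0.00227), and the proteasome activator psme4a rose 1.92-fold. Of 103 cell cycle genes tested 11 were lower and none higher, 96 had negative fold changes, and the median was -0.21. The lower count was 2 without control replicate 1, 7 without control replicate 2 or 3, 4 without exposed replicate 1 and 3 without exposed replicate 2, and it was 25 with DESeq2 and 21 with total counts alone. The mitotic kinase plk1 was at 87.4, 78.8 and 81 CPM in the controls and 64.6, 59.6 and 62.6 CPM at 750 ng/mL (log2 fold change -0.4 ± 0.08, edgeR adjusted p = 0.00584). The replication helicase gene mcm4 (-0.5) and the spindle motor kif11 (-0.35) fell, with calls lost without control replicate 1 or exposed replicate 1 or 3 for mcm4 and without exposed replicate 2 for kif11.

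Of 36 tested genes of red blood cells 8 were lower and none higher, beside 2.14% of all genes called lower. The 8 became 4 without control replicate 1, and all 10 globins tested had a negative fold change. The red cell anion exchanger slc4a1a was at 53.3, 74.6 and 39.8 CPM in the controls and 25.8, 29.9 and 29.1 CPM at 750 ng/mL (log2 fold change -0.98 ± 0.16, edgeR adjusted p = 0.00253). The heme synthesis enzyme cpox was at 27.9, 31.1 and 23.6 CPM in the controls and 17.7, 17.8 and 16.7 CPM at 750 ng/mL (log2 fold change -0.66 ± 0.13, edgeR adjusted p = 0.00565), and urod was lower by a log2 fold change of -0.64. The groups of slc4a1a and cpox did not overlap. The embryonic beta globin hbbe1.1 was called lower (-0.74), as was the erythroid factor gata1a (-0.84). Both calls were lost without control replicate 1, and globin copies may share reads.

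Immune lists were small, and are read against the 4.2% of all genes called higher. Of 63 inflammation genes 4 were higher, of 18 neutrophil genes 3, of 33 macrophage genes 5, of 14 lymphocyte genes 2 and of 21 interferon genes 4, with none lower. Each share was above that of all genes, but lists this short would hold few calls at that share. The differences were not tested. Without exposed replicate 3 the inflammation and interferon counts were both 2 and the neutrophil count 1. Without control replicate 1 the counts were 1 for neutrophils, 3 for macrophages and 2 for interferon genes, and without control replicate 3 they were 1 for neutrophils and 2 for interferon genes. The neutrophil count was also 1 without exposed replicate 1. The neutrophil count includes the pancreatic gene cpa5. The defining markers mpx (neutrophils, -0.14) and mpeg1.1 (macrophages, 0.09) were not called. The cytokine brake socs1a was at 4.29, 4.37 and 5.01 CPM in the controls and 9.5, 10.299 and 17.1 CPM at 750 ng/mL (log2 fold change 1.43 ± 0.21, edgeR adjusted p = 0.00107), and the interferon-regulated factor irf1b at 3.54, 3.58 and 4.73 CPM in the controls and 8.64, 6.83 and 13.4 CPM at 750 ng/mL (log2 fold change 1.28 ± 0.26, edgeR adjusted p = 0.00819). Replicate 3 at 750 ng/mL was the highest library in both. The signal transducer stat2 rose 1.48-fold. The antiviral gene mxe was called (2.23, edgeR adjusted p = 0.047) at levels of at most 1.34 CPM, with the call lost in all fits without a library except that without exposed replicate 1, and its relative mxc stood at 3.46, 2.4 and 21.6 CPM in the exposed libraries, with replicate 3 far above the others, and was not called. The recombinase gene rag1 of developing lymphocytes was at 4.11, 4 and 3.77 CPM in the controls and 7.37, 7.54 and 9.25 CPM at 750 ng/mL (log2 fold change 1.02 ± 0.20, edgeR adjusted p = 0.00584), and the thymus homing receptor ccr9a rose 1.72-fold. Of 4 tested granulin genes 2 were higher, or 1 under the filter of at least 10 counts in every library or with only the compared groups in the fit. The granulin gene grn1 rose 1.57-fold, and the largest log2 fold change of the 4 was 2.6, also the largest of the macrophage list. These lists share members, so their counts are not separate.

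None of 83 ribosomal protein genes was called, although all 83 had a positive fold change, with a median of 0.17. Of 85 nuclear respiratory chain genes 4 were higher, close to the 4.2% of all genes, among them cox6a2 and cox4i2 (1.11 and 0.68), which encode alternative cytochrome oxidase subunits. The listed transcripts encoded in mitochondria matched no row of the count table and were not tested. Of 30 hypoxia genes 4 were higher, a larger share than over all genes, including ndrg1b (1.9-fold), or 2 without control replicate 1 or exposed replicate 1 or 3. The respiratory chain count was 2 without exposed replicate 3. The gel-forming mucin muc5.2 was lower in every exposed library than in any control, at 15.3, 15.6 and 3.53 CPM against 18.5, 17.6 and 20.9 CPM, with replicate 3 far below the others, and was not called (-0.72).

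**Figure D4:**
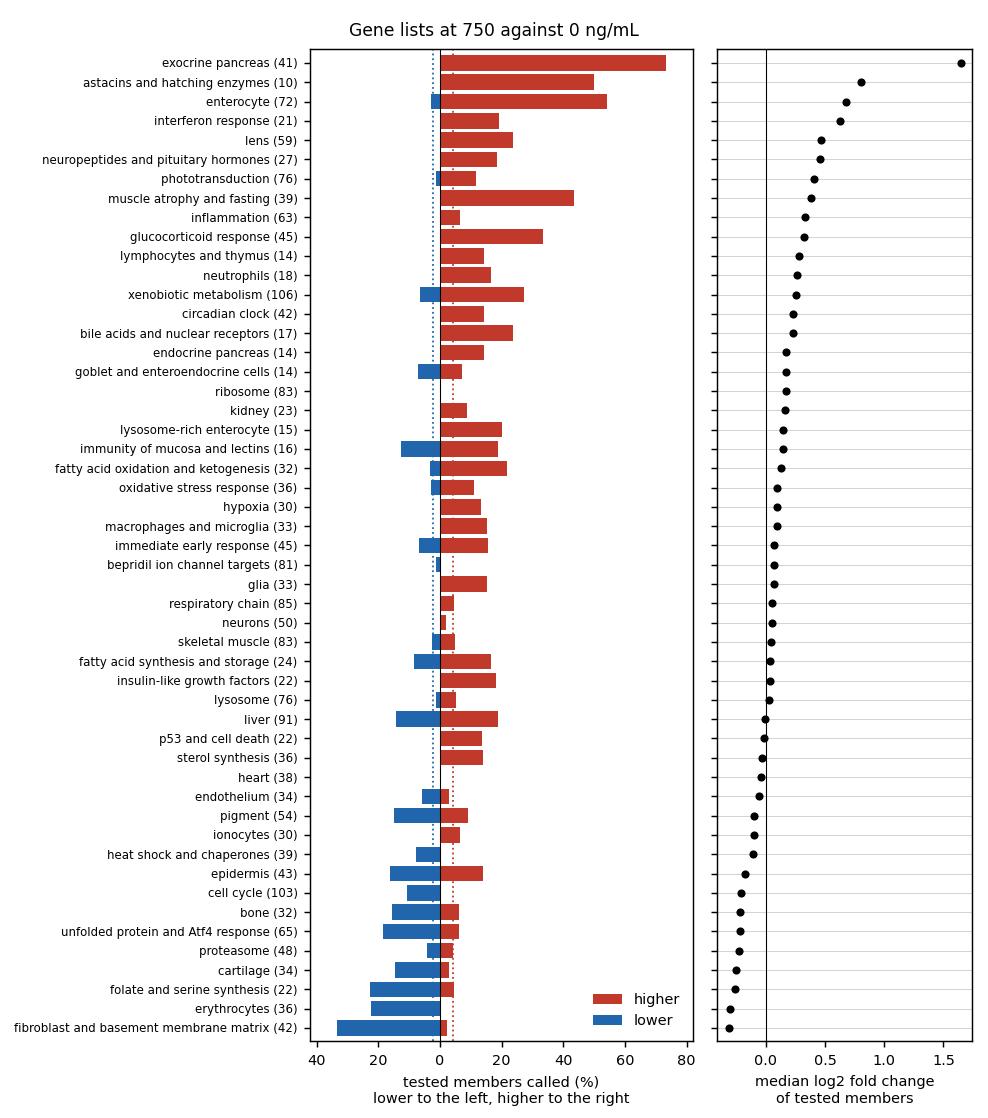
Percent of the tested members of each gene list called higher (red, right) or lower (blue, left), with dotted lines for the shares of all tested genes (4.2% and 2.14%), and the median log2 fold change of each list at right, number of tested members in brackets. Exocrine pancreas genes reach the largest share and the largest median (1.65), and fibroblast and basement membrane matrix genes the largest lower share with all libraries in the fit, which fell from 14 to 5 genes without control replicate 1.

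The neighbouring doses gave values on both sides of 750 ng/mL. These comparisons share the 750 ng/mL libraries with the one above and were not independent of it. Against 250 ng/mL no gene was called with edgeR (0% of tested), 1681 genes had an unadjusted p under 0.05 (7.79%), and DESeq2 called 5, of which 1 was higher and 4 lower. Without exposed replicate 3 edgeR called 1 lower gene. Among the genes with the smallest unadjusted p was the receptor gene of sterol uptake. The receptor gene ldlra was at 104, 118 and 111 CPM at 250 ng/mL against 81.2, 75.1 and 82.3 CPM at 750 ng/mL (log2 fold change -0.49 ± 0.09, edgeR adjusted p = 0.619). The cytokine brake socs2 was at 38.1, 40.3 and 39.3 CPM against 27, 26 and 17.4 CPM (-0.74 ± 0.14, edgeR adjusted p = 0.619), and dsg2.1 at 53.6, 52.6 and 55.8 CPM against 40.4, 41.4 and 38.3 CPM (-0.43 ± 0.08, edgeR adjusted p = 0.619). All these adjusted p-values are far above the threshold. The libraries did not overlap in any of the 3 genes, but choosing genes by smallest p made this likely, so it adds no support. The cochaperone gene dnaja, called lower against the controls (-0.5), was at 20.2, 15.6 and 17.2 CPM at 250 ng/mL and 25.3, 27 and 22.6 CPM at 750 ng/mL. The oxygen sensor gene egln1b, not called against the controls, was at 19.2, 16.5 and 17.7 CPM and 22.9, 23.1 and 25.6 CPM.

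Against 1295 ng/mL 11239 genes, 52.1% of those tested, were called, 5054 higher and 6185 lower at the higher dose. With total counts alone in place of composition scaling, 2471 were higher and 8959 lower, the median of all genes moving from -0.05 to -0.29, so directions at this dose are relative to that shift. The gene with the smallest adjusted p at 750 ng/mL, mthfd1l, went from 33.8, 40.7 and 32.3 CPM to 172, 148 and 178 CPM at 1295 ng/mL (log2 fold change 2.22 ± 0.12, edgeR adjusted p = 9.47e-08). The purine enzyme paics went from 66.4, 85.2 and 66.2 CPM to 306, 258 and 299.6 CPM (1.99 ± 0.17, edgeR adjusted p = 7.5e-07), and bhmt from 576, 734 and 688 CPM to 2173, 2369 and 2185 CPM (1.75 ± 0.12, edgeR adjusted p = 1.8e-07). At 1295 ng/mL these 3 genes lay above all control libraries, which had stood at 94.2, 99.6 and 79.6 CPM for mthfd1l. Other genes named above were lower at 1295 ng/mL. The chitinase gene chia.2 went from 1036, 885 and 1109 CPM to 117, 175 and 117 CPM (-2.89 ± 0.29, edgeR adjusted p = 2.54e-06), alp3 from 8.99, 10.1 and 9.19 CPM to 0.805, 0.593 and 0.618 CPM (-3.79 ± 0.22, edgeR adjusted p = 9.47e-08) and the transglutaminase gene tgm1l3, which had risen 1.82-fold at 750 ng/mL, from 25.6, 27.4 and 25.4 CPM to 3.47, 1.71 and 2.41 CPM. The translation factor eef1a1a, 1.66-fold higher at 750 ng/mL than in the controls, went from 56.7, 59 and 64.7 CPM to 20.6, 20.3 and 19.8 CPM (-1.57 ± 0.09, edgeR adjusted p = 9.47e-08). The synaptic gene syngap1b, whose call against the controls was lost in all 6 fits without a library, went from 72.3, 67.7 and 77.3 CPM to 16.7, 10.9 and 17 CPM.

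**Figure D5:**
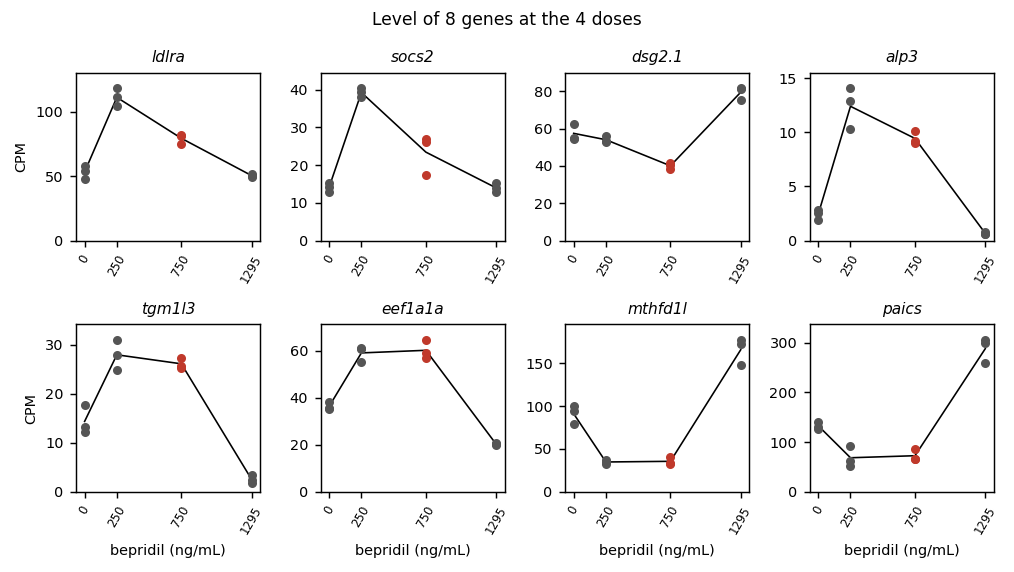
CPM (y axis, linear from 0) of 8 genes in each library against bepridil dose (x axis, 4 doses), with red points for 750 ng/mL, grey for the other doses and a line through the group means. The levels at 250 and 750 ng/mL lie closer to each other than to those at 1295 ng/mL in alp3, tgm1l3, eef1a1a, mthfd1l and paics, while ldlra and socs2 are highest at 250 ng/mL and dsg2.1 is lowest at 750 ng/mL.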

How the data were processed

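RNA was extracted with RNAiso Plus from pools of 15 larvae and made into stranded mRNA libraries, per the labels' protocols. The authors deposited raw read counts per gene. Trimmomatic, HISAT2, HTSeq and the build GRCz11 are named in the submitters' processing notes, with versions and the strand setting not given in the sources used here, so reads of overlapping antisense genes may not be told apart. The deposited counts were used unchanged, and 10 rows whose names read as dates were kept without a gene name in the text. From them edgeR 4.0.16 (R 4.3.3) fitted all 12 libraries with dose as the only factor, TMM scaling and filterByExpr on dose, leaving 8 residual degrees of freedom. CPM are TMM-scaled. Depth per library was 16028012 to 16777922 counts in the compared groups, and the typical variation between replicates was 12.1%. Simulated data for the comparison of 750 with 0 ng/mL covered 21450 genes. In them 52.2% of 1.5-fold, 94% of 2-fold and 100% of 4-fold changes were recovered, and 4.09% of calls were false. The simulation gave every gene the same 12.1% variation, changed no gene at a low level and held no outlying library. These rates may therefore not hold for the real libraries. Replicates differed by more than counting noise (chi-square per degree of freedom of 3.69 to 16.1).

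The genes and lists were chosen with earlier results of these data known. Named genes were taken by size of change (20 in each direction) and by level (10 in each direction). Others were up to 6 members of each role of each list by smallest p, and cell type markers. For the comparisons with the other doses, genes were taken by smallest p. Those taken by size of change were called genes with a mean of at least 1 CPM and no overlap between groups. Their lack of overlap was thus fixed by the choice. Of 2476 list entries 2226 matched by symbol and 96 by an older symbol, 154 were unmatched and 97 matched entries were not tested. Alternatives tried were other scalings, filters on low counts, DESeq2 1.42.0, limma-voom (limma 3.58.1), a fit of the compared groups alone, the replicate number as a block, a stricter threshold and leaving out each library. Promoter motifs were not analysed here. Tables were summarised with Python 3.11.15 and pandas 2.3.3.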

Additional observations from a re-analysis of the deposited data

How the results depend on the processing

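The count of 1367 genes changed at 750 ng/mL was 1275 with the replicate number as a block, 813 (475 higher) with only the compared groups in the fit and 547 (397 higher, 150 lower) at an adjusted p under 0.01. DESeq2 called 728 genes lower against 461. Leaving out 1 library gave 631 to 1354 genes, 428 to 926 higher and 203 to 428 lower, and 220 to 405 changed at least 2-fold. Against 250 ng/mL the count of 0 was 5 with DESeq2 and 0 to 1 when single libraries were left out. Against 1295 ng/mL the leave-one-out range was 9599 to 11452. Deviations of same-numbered libraries at 0 and 750 ng/mL correlated at -0.15, -0.10 and -0.10, so no positive pairing by replicate number was seen. With 3 pools per group these values cannot tell whether pools shared a clutch or tank. With the block the lower count became 1 from 2 for enterocyte genes, proteasome genes and conjugating enzymes, the higher count became 0 from 1 for cartilage and for matrix genes, and the exocrine pancreas had 1 lower gene in place of 0. The exocrine pancreas also had 1 lower gene with the other scalings, DESeq2, the filter of at least 10 counts in every library and the compared groups alone. No other list count printed in the text moved by more than 1.5 times under the block. With only the compared groups in the fit, where all calls fell to 813, more list counts moved. Higher counts became 4 from 14 for lens genes, 10 from 17 for fasting genes, 11 from 17 for liver genes and 1 from 6 for epidermal genes. The higher count of the exocrine pancreas moved little in that fit, to 29 from 30. Of the 153 genes called among the 176 named in the text, 137 kept their call without each library in turn. Over all 1367 called genes, 525 did so. Named genes were mostly picked by small p or large change, so their share does not stand for all calls. No named gene's called direction was reversed under any alternative run. The cause of these differences was not tested. With 3 pools per group, small changes can be missed, and a missing call does not show that a level was equal.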
